A study of Mus musculus with 2 samples.

Results

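Sequences of exactly 22 bases that end in CCA, the hallmark of the 3′ end of a mature tRNA, were described in 2 small RNA libraries of mouse dendritic cells. Members were all such sequences without a full-length sense match to a miRNA or mitochondrial tRNA gene of GENCODE vM21, which left 1628 of the 538100 distinct sequences in the deposited table. Of these, 851 had a read in the nuclear library, 927 in the cytoplasmic library and 150 in both. Members were grouped by bases 5 to 19, the stretch up to the CCA, and within a group by base 4.

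The cells were bone marrow-derived dendritic cells of C57BL/6 mice, grown for 7 days with GM-CSF and IL-4 and given LPS, a bacterial cell wall component. RNA from the spun pellet that contained the nuclei made the nuclear library, and RNA from the cytoplasmic fraction made the cytoplasmic library, with 1 library each. The labels state neither the dose nor the duration of LPS, and no unstimulated cells were analysed, so both groups share the culture and the stimulus. With 1 library per group there is no replicate check, no test was possible and no p-value is given, and each ratio compares these 2 libraries only.

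A tRNA gene does not encode its CCA. An enzyme adds it to the processed tRNA, where it later carries the amino acid, so a CCA end points to a finished tRNA and not to its precursor. The 3′ end of a tRNA folds into the T-loop and the acceptor stem. Cleavage in the T-loop gives 3′ end fragments, of which a shorter and a longer form are well known in mammalian cells, and the longer form has been described bound to Argonaute proteins, the partners of miRNAs. Counted back from the final A at tRNA position 76, a fragment of 22 bases starts at position 55, usually a pseudouridine, and its base 4 is position 58. The adenosine there is commonly methylated on the face that pairs, and reverse transcriptase that reads through such a base often inserts a wrong nucleotide, so the base in a sequencing read can differ from the base in the gene.

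The leading sequences of the 10 most abundant groups are shown first because most values below rest on them. Groups are numbered by their reads over both libraries, and the capital marks base 4.
Group 1: tcgTttccggctcgaaggacca
Group 2: tcgAaaccgggcggaaacacca
Group 3: tcgTttcccgggcggcgcacca
Group 4: tcgTttcccggccaacgcacca
Group 5: tcgTttcccggccaatgcacca
Group 6: tcgAatcctgccgactacgcca
Group 7: tcaGgtcacgtcggggtcacca
Group 8: aggAattgacggaagggcacca
Group 9: tcgAtccccggcatctccacca
Group 10: tcgAatcctgttcgtgacgcca
Apart from group 8, each begins with TC and a purine and has C at base 7, the order found in the T-loop of nearly all tRNAs, at positions 55 to 57 and 61. This order is called a T-loop start here.

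The label fitted most cytoplasmic reads and a smaller share of the nuclear ones. A T-loop start was found in 46.6% of the 2912 nuclear and 95.7% of the 16686 cytoplasmic member reads. In 22-base sequences with any of the 63 other endings and, as for members, no miRNA or mitochondrial tRNA match, it was found in 0.425% of nuclear and 0.795% of cytoplasmic reads. Among 22-base sequences without such a match, CCA held 91.3% of the reads with a T-loop start. By reads of these sequences, CCA ranked 22 in the nuclear and 2 in the cytoplasmic library among the 64 possible endings. Only 8 members, with 8 nuclear and 15 cytoplasmic reads, equalled a mitochondrial tRNA 3′ end plus CCA.

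The remaining members were of mixed origin. Group 8, with 278 nuclear and 109 cytoplasmic reads, matched Gm42418, an entry related to 18S ribosomal RNA. Groups 23 and 24 matched the chaperone gene Hspa8, group 24 within its intronic snoRNA Snord14e, and group 20 had no full-length match. These last 3 groups were nearly absent from the cytoplasmic library.
Group 20: tcgCtgtgatgatggattccca
Group 23: ctcGctgtgatgatggattcca
Group 24: cacAatgatgatgaatggtcca
Group 20 had 81 nuclear and 0 cytoplasmic reads, group 23 had 75 and 0, and group 24 had 64 and 1. Members without a T-loop start are therefore kept apart below. All 4 of these groups were higher in the nuclear library. Groups 20, 23 and 24 reached the minimum of 50 reads only through that library, where they are high, so the count is a description. The share of 22-base groups called higher was 30.6% over all endings.

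The libraries were of like depth, with 2000019 nuclear and 2041383 cytoplasmic reads recovered from the table. Reads of snoRNA and scaRNA genes, which act in the nucleus, held 8.95% of nuclear and 0.450% of cytoplasmic reads, and the nuclear-retained RNAs Malat1 and Neat1 were 6.52-fold and 16.6-fold higher in the nuclear library. Mitochondrial rRNA, which lies outside the nucleus, had 1661 nuclear RPM and 1909 cytoplasmic RPM, where RPM is a read count scaled to the total of listed reads. Mitochondrial tRNA genes had 601 nuclear RPM and 1554 cytoplasmic RPM. They were thus 2.58-fold lower in the nuclear library, against 1.15-fold for mitochondrial rRNA. The part of such RNA in the nuclear tRNA fragment reads was not tested. All 7 myeloid miRNAs on the marker list were detected, with 4938 nuclear and 5356 cytoplasmic reads in all, led by miR-155-5p with 4281 and 3276. The other 6 were each lower in the nuclear library, with 657 and 2080 reads together. The erythroid miR-451a and miR-144-3p and the endothelial miR-126a-3p had 0 reads in both libraries, the stromal miR-199a-3p had 266 nuclear and 261 cytoplasmic reads, and the 4 epithelial miRNAs had 51 and 73 in all. The neural miR-9-5p had 362 nuclear and 707 cytoplasmic reads, and the muscle miR-206-3p had 28 and 7. The part of other cell types in the fragment reads was not tested. These counts take reads equal to the mature sequence in RefSeq. Listed markers without an entry to look up were not counted. They were the erythroid miR-486a-5p, the hepatocyte miR-122-5p, the lymphoid miR-150-5p and the neural miR-124-3p. The muscle miR-1a-3p and miR-133a-3p and the stromal miR-143-3p and miR-145a-5p were also among them.

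The first comparison asked whether the fragments differ in level between the fractions. Members together stood at 1456 nuclear RPM and 8174 cytoplasmic RPM, 5.61-fold lower in the nuclear library (95% interval 5.40 to 5.84). Intervals here are exact, conditional on the reads of both libraries, and cover counting error alone, since PCR copies cannot be told from separate molecules. Members with a T-loop start stood at 679 nuclear RPM and 7822 cytoplasmic RPM, an 11.5-fold difference (10.9 to 12.2), whereas the other members were higher in the nuclear library by 2.21-fold (2.02 to 2.41). For reference, 22-base sequences of miRNA genes were 1.76-fold lower in the nuclear library (1.75 to 1.76), and all 22-base sequences 1.41-fold (1.40 to 1.41). Of 3867 single sequences of any length with at least 50 reads, 27.0% were called lower and 40.1% higher by the rule given next.

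Of the 1334 groups, 27 had at least 50 reads over both libraries, and 23 of these had a T-loop start. All 23 were lower in the nuclear library by at least 2-fold with an interval that excluded 1. Over all endings, 29.0% of 738 groups of 22-base sequences with as many reads were called lower. Of the 23, groups 1 to 5 had at least 50 reads in the nuclear library alone, and the other 18 passed the minimum only through the cytoplasmic library, where they are high, so the count and the median over all 23 are a description. The median log2 ratio, nuclear over cytoplasmic with 0.5 reads added, was -4.30 over the 23 groups and -0.28 over the 738. These 23 groups held 1116 of the 2912 nuclear and 14939 of the 16686 cytoplasmic member reads. Among the 22 of them with reads in both libraries, the difference ran from 3.92-fold to 60.7-fold, with a median of 19.8-fold. The upper end is group 25 with 1 nuclear read (10.5 to 2437), and group 10 came next with 49.6-fold on 5 nuclear reads. In bulk RNA, fewer cells that hold a fragment and fewer copies per cell cannot be told apart. RPM is also a share of each library and not a count per nucleus or cytoplasm, and the libraries differed in content. Reads of miRNA genes held 33.4% of nuclear and 62.0% of cytoplasmic reads.

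**Figure D1:**
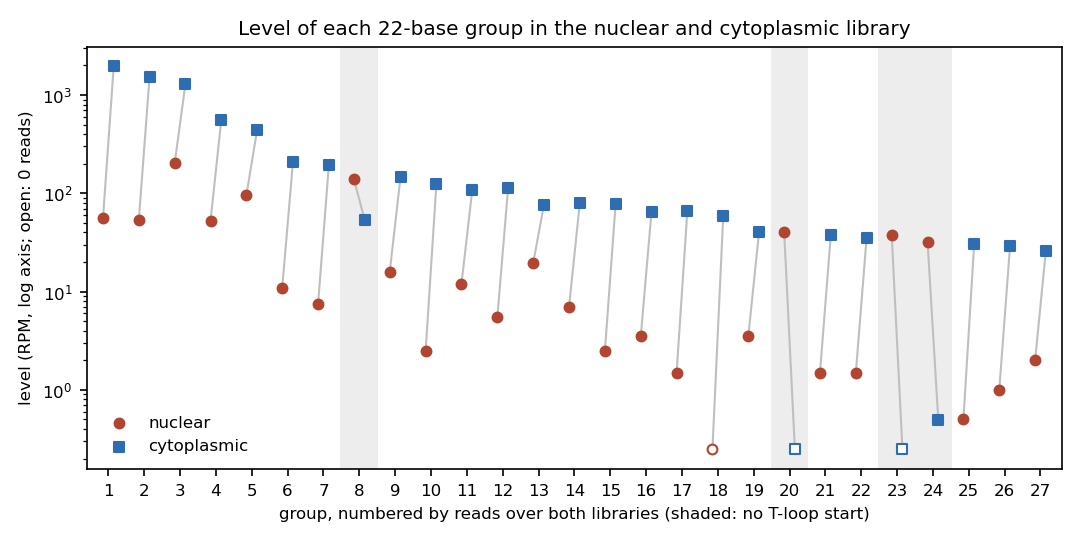
Level in RPM (log axis) of the 27 groups with at least 50 reads, by group number, with the nuclear library as circles and the cytoplasmic library as squares; lines join the 2 values of a group and open symbols stand for 0 reads. The 23 groups with a T-loop start lie lower in the nuclear library, and the 4 shaded groups without one lie higher.

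Group 1 was the most abundant fragment of the cytoplasmic library, with 111 nuclear and 4011 cytoplasmic reads. It stood at 55.5 nuclear RPM and 1965 cytoplasmic RPM, 35.4-fold lower in the nuclear library (29.3 to 43.1). Groups 15 and 25 carry the same bases 6 to 19 as group 1 and differ from it at base 5.
Group 15: tcgAatccggctcgaaggacca
Group 25: tcgGctccggctcgaaggacca
Group 15 had 5 nuclear and 160 cytoplasmic reads, and group 25 had 1 and 62, with ratios of 0.0319 (0.0102 to 0.0760) and 0.0165 (4.1e-04 to 0.0952). The 3 groups thus lay at similar ratios, and the intervals of all 3 overlapped. No tRNA gene sequence in the tables used here matched any of them, so they carry no tRNA name.

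Group 2 matched a valine tRNA gene, n-TVcac9 (GRCm38.p6, chr13:23446142-23446214, minus strand), within the window around the start of the gene Gm46404. It had 107 nuclear and 3148 cytoplasmic reads, 53.5 nuclear RPM and 1542 cytoplasmic RPM, 28.8-fold lower in the nuclear library (23.8 to 35.3). Group 3 matched a glycine tRNA gene, n-TGccc7 (chr17:25875088-25875158, plus strand), which lies in an exon of Mettl26. It had 405 nuclear and 2643 cytoplasmic reads, 202 nuclear RPM and 1295 cytoplasmic RPM, 6.39-fold lower in the nuclear library (5.76 to 7.12). The interval of group 3 did not overlap that of group 1 or of group 2. tRNA genes come in many copies, and other genes can share these ends. RefSeq lists 408 loci of nuclear tRNAs. A 3′ end sequence with a T-loop start could be read for 15 of them, and other ends were not kept.

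The order of the groups therefore differed between the libraries. Group 3 led the nuclear library, with 36.3% of the nuclear and 17.7% of the cytoplasmic reads of the 23 groups, and group 5 came second there with 17.1% and 6.04%. Group 1 held 9.95% of nuclear and 26.8% of cytoplasmic reads. Groups 3, 4, 5 and 13 share the first 11 bases of their leading sequence and include the 3 groups with the smallest differences, 13, 5 and 3.
Group 13: tcgTttcccggcccatgcacca
Group 13 had 39 nuclear and 156 cytoplasmic reads and was 3.92-fold lower in the nuclear library (2.74 to 5.72), the smallest difference of the 23. Group 5, with 191 and 903 reads, was 4.63-fold lower (3.96 to 5.44). Group 4, with 105 and 1139 reads, was 10.6-fold lower (8.70 to 13.1), and its interval did not overlap that of group 5.

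The end of group 6 was shared by 3 serine tRNA genes: n-TSaga9 (chr4:10874064-10874145, plus strand), n-TStga2 (chr13:21924935-21925016, minus strand) and n-TStga1 (chr13:23518146-23518227, plus strand). The group had 22 nuclear and 428 cytoplasmic reads and was 19.1-fold lower in the nuclear library (12.4 to 30.7). Another serine gene, n-TSgct5 (chr13:22050686-22050767, minus strand), gave group 11, with 24 nuclear and 220 cytoplasmic reads, 8.98-fold lower (5.88 to 14.3). The intervals of these serine groups overlapped.
Group 11: tcgAatcccatcctcgtcgcca
Group 19: tcgTgcccacccagggacgcca
Group 34: tcgAatcccagcggtgcctcca
Group 35: tcgTgtcctgccgcggtcgcca
Group 45: tcgTatcccaccgctgccacca
Group 19 matched the asparagine gene n-TNgtt7 (chr10:80249159-80249232, plus strand), near the start of Ndufs7, and had 7 nuclear and 83 cytoplasmic reads, 11.6-fold lower in the nuclear library (5.39 to 29.8). Less abundant were the ends of the threonine gene n-TTagt9 (chr7:35234770-35234843, minus strand; group 34, 3 nuclear and 31 cytoplasmic reads) and the arginine gene n-TRtcg5 (chr7:79466419-79466491, plus strand; group 35, 5 and 28 reads). The leucine gene n-TLaag4 (chr7:120917517-120917598, plus strand), near the start of Polr3e, a gene of the polymerase that transcribes tRNAs, gave group 45 with 0 nuclear and 16 cytoplasmic reads. Against a floor of 3 reads in the nuclear library, group 45 was at least 5.22-fold lower there, and its exact interval began at 3.78-fold. In all, 14 of the 15 loci had a read in their group and 10 had at least 10 reads.

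Groups 17 and 18, with groups 1, 10 and 25, had the lowest log2 ratios of the 27 groups.
Group 17: tcgTatcccacttctgacacca
Group 18: tcgActcccggtgtgggaacca
Group 18 had 0 nuclear and 119 cytoplasmic reads, at least 38.9-fold lower in the nuclear library against a floor of 3 reads there, and its exact interval began at 31.1-fold. Group 10 had 5 nuclear and 253 cytoplasmic reads, 49.6-fold lower (21 to 154). Group 17 had 3 and 134 reads, a ratio of 0.0229 (0.00465 to 0.0682). Group 7 had 15 and 393 reads, 25.7-fold lower (15.4 to 46.3), and group 9 had 32 and 301 reads, 9.22-fold lower (6.39 to 13.7). With so few nuclear reads, the order among groups 10, 17, 18 and 25 could not be resolved at this depth.

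The second comparison took the base at position 58. The gene has A at base 4 in all 15 loci with a sequence and a T-loop start, yet most reads had another base. Over all members, T stood at base 4 in 36.9% of nuclear and 62.3% of cytoplasmic reads, and A in 38.3% and 29.1%. Among all members with a T-loop start the libraries were closer. There, a base other than A was read in 71.7% of nuclear reads (95% interval 69.2 to 74.1) and 72.3% of cytoplasmic reads (71.6 to 73). T alone made up 66.3% and 64.2%, G 4.86% and 7.68%, and C 0.515% and 0.407%. Over the 23 groups alone the intervals did not overlap, with 78.9% of nuclear reads (76.3 to 81.2) and 72.95% of cytoplasmic reads (72.2 to 73.7) without A.

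The 4 forms of groups 1, 2 and 3 show how the reads divided.
Group 1 with A: tcgAttccggctcgaaggacca
Group 1 with T: tcgTttccggctcgaaggacca
Group 1 with G: tcgGttccggctcgaaggacca
Group 1 with C: tcgCttccggctcgaaggacca
Group 2 with A: tcgAaaccgggcggaaacacca
Group 2 with T: tcgTaaccgggcggaaacacca
Group 2 with G: tcgGaaccgggcggaaacacca
Group 2 with C: tcgCaaccgggcggaaacacca
Group 3 with A: tcgAttcccgggcggcgcacca
Group 3 with T: tcgTttcccgggcggcgcacca
Group 3 with G: tcgGttcccgggcggcgcacca
Group 3 with C: tcgCttcccgggcggcgcacca
In group 1 the form with T had 106 nuclear and 3745 cytoplasmic reads, against 4 and 221 with A, 0 and 33 with G, and 0 and 4 with C. In group 2, the form with A, equal to the end of n-TVcac9, led with 65 nuclear and 1747 cytoplasmic reads. Its substitutions, counted from 1 at the 5′ end of the fragment with the gene's base first, were A4T with 30 and 1037 reads, A4G with 12 and 337, and A4C with 0 and 17. In group 3 the form equal to the end of n-TGccc7 had 34 nuclear and 176 cytoplasmic reads, while A4T had 367 and 2429. The valine end thus kept A in most reads and the glycine end in few, in both libraries.

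Across the 23 groups the share of cytoplasmic reads without A ran over nearly the whole scale, with a median of 60.6%. A was the commonest base at base 4 in 10 groups, T in 10 and G in 3. The highest share without A was 94.5% in group 1, followed by group 3 with 93.3%. Group 18 had 1 such read of 119, and group 22 had 0 of 72, which allows a share of up to 4.99% (upper end of the exact binomial interval).
Group 22: tcgActcccggtatgggaacca
Both have C at base 5, but so does group 25, in which 79.0% of cytoplasmic reads lacked A. G led in groups 7 and 12, each with G at base 5, and in group 25. Group 12 had 9 nuclear and 153 cytoplasmic reads with G, against 0 and 21 with A.
Group 12: tcaGgtccctgttcgggcgcca
By base 5, the median share without A in the cytoplasmic library was 44.0% over the 8 groups with A there, 82.8% over 8 with T, 87.9% over 4 with G and 0.840% over 3 with C. The 8 groups with T ranged widely, since group 9 lay at 15.3%.

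Neighbouring base and base 4 varied together within otherwise equal ends as well. Groups 7 and 14 have the same bases 6 to 19.
Group 14: tcaAatcacgtcggggtcacca
With G at base 5, group 7 had 87% of its 393 cytoplasmic reads without A (83.3 to 90.2), and with A at base 5, group 14 had 43.6% of 163 (35.8 to 51.5). Whether these pairs come from separate genes was not tested.

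Within groups, most intervals of the 2 libraries overlapped, but many were wide because of few nuclear reads. Of the 12 groups with at least 10 nuclear reads, the intervals of the nuclear and cytoplasmic shares without A overlapped in 11. The share was higher in the nuclear library in 9 of the 12 and lower in 3, which were groups 2, 3 and 14. Group 1 had 96.4% in the nuclear and 94.5% in the cytoplasmic library, group 2 had 39.3% and 44.3%, group 3 had 91.6% and 93.3%, and group 6 had 22.7% and 17.8%. The intervals were apart only in group 14, with 1 of 14 nuclear reads (7.14%, interval 0.181 to 33.9) and 71 of 163 cytoplasmic reads. With the groups weighted as in the cytoplasmic library, the 22 groups with nuclear reads had 73% without A in the nuclear and 73.5% in the cytoplasmic library.

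**Figure D2:**
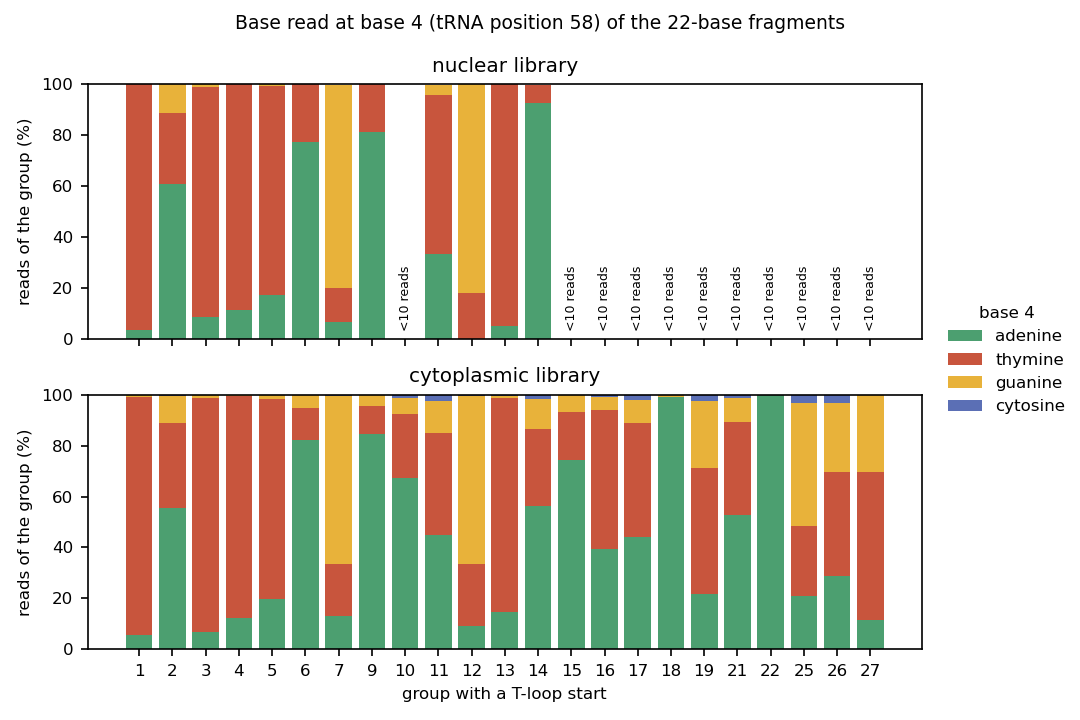
Share of each base at base 4 (tRNA position 58) in percent of a group's reads, by group, with the nuclear library in the upper and the cytoplasmic library in the lower panel; groups under 10 reads in a library are marked as such. Groups 1 and 3 to 5 are mostly thymine, groups 6 and 9 mostly adenine and groups 7 and 12 mostly guanine in both panels.

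With sequences of other large groups left out, substitutions were concentrated at base 4. Around the leading sequences of the 10 most abundant T-loop groups, 15.3% of nuclear reads (13.2 to 17.6) and 19% of cytoplasmic reads (18.4 to 19.7) differed from the leading sequence at base 4 alone. Summed over the 10 groups, the other 18 positions before the CCA reached at most 0.662% in the nuclear library (base 15) and 0.493% in the cytoplasmic library (base 7). Base 4 was the position with the highest share in 9 of the 10 groups. Within single groups, base 3 reached up to 12.5% of cytoplasmic reads. Sequences that belong to another group with at least 50 reads were left out, a choice made after seeing that group 5 lies 1 substitution from groups 4 and 13. With them kept, base 16 reached 18.7% in the nuclear and 11% in the cytoplasmic library.

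**Figure D3:**
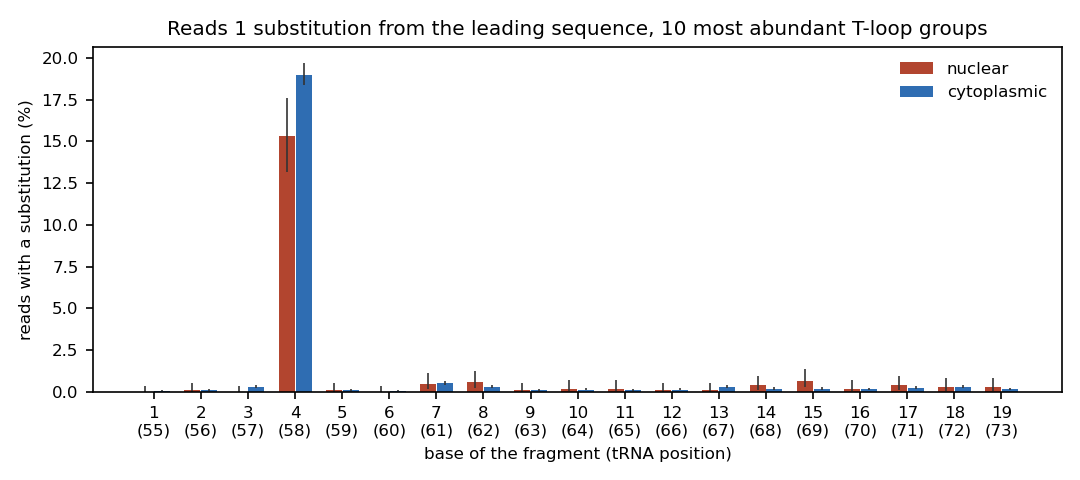
Share of reads in percent that differ from the leading sequence at 1 base, by base of the fragment with the tRNA position in brackets, summed over the 10 most abundant T-loop groups, for the nuclear and the cytoplasmic library; bars start at 0 and lines are exact 95% binomial intervals. Sequences of other groups with at least 50 reads are left out. Base 4 reaches 15.3% in the nuclear and 19% in the cytoplasmic library, and no other base passes 0.662%.

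Reads of other lengths that end in the same bases give a readout that the choice of members did not use. The 23 ends were themselves chosen by their 22-base reads, 18 of them only through the cytoplasmic library. Shares at 22 bases, and other lengths set beside 22 bases here and below, are therefore a description. Over 18 to 39 bases, the ends of the 23 groups had 2554 nuclear and 25589 cytoplasmic reads. Of these, 22 bases held 43.7% of nuclear and 58.4% of cytoplasmic reads, and 18 bases, which start at position 59 and so lack position 58, held 34.3% and 34.8%. The lengths in between, 19 to 21 bases, held 19% of nuclear and 6.63% of cytoplasmic reads. Lengths over 22 bases were the scarcest, with 77 nuclear and 42 cytoplasmic reads in all.

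**Figure D4:**
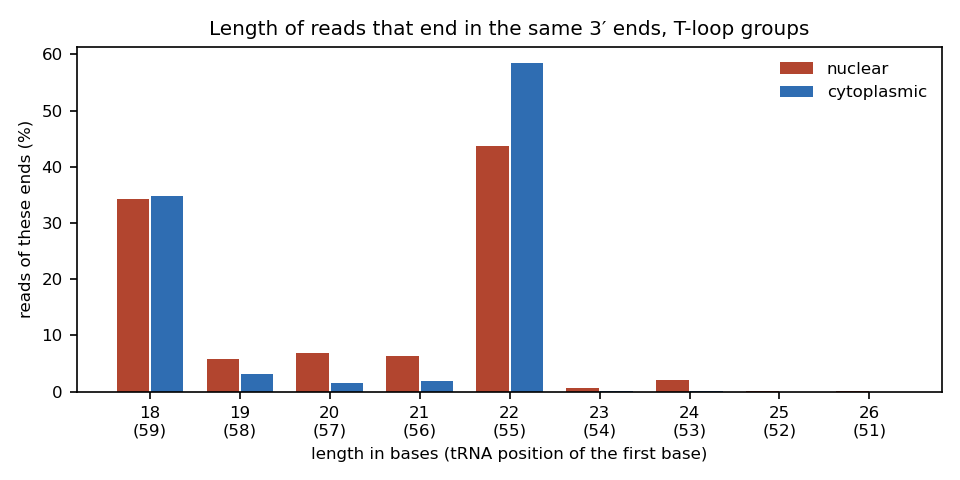
Share of reads in percent by length up to 26 bases, with the tRNA position of the first base in brackets, among reads that end in the 3′ ends of the 23 T-loop groups, for the nuclear and the cytoplasmic library. Both libraries peak at 22 and at 18 bases, with 43.7% and 34.3% in the nuclear and 58.4% and 34.8% in the cytoplasmic library. The ends were chosen by their 22-base reads.

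Each length from 18 to 22 bases was lower in the nuclear library. The 22-base form of these ends was 13.1-fold lower in the nuclear library (12.3 to 13.9) and the 18-base form, with 875 nuclear and 8912 cytoplasmic reads, 9.98-fold lower (9.31 to 10.7). The 20-base form differed less, with 177 and 403 reads, 2.23-fold lower in the nuclear library (1.86 to 2.68). At 24 bases the direction was opposite, with 53 nuclear and 20 cytoplasmic reads, a ratio of 2.70 (1.59 to 4.78). A single sequence, the end of n-TGccc7 extended to position 53, gave 39 of these nuclear and 2 of these cytoplasmic reads, a ratio of 19.9 (5.15 to 170). The capital in the lines below marks position 58, whatever the length.
Group 3 at 24 bases: gttcgAttcccgggcggcgcacca
This sequence has A at position 58. Without group 3, 24-base reads numbered 12 in the nuclear and 17 in the cytoplasmic library, so the direction at this length rests on group 3. A 20-base sequence of group 4, with 61 nuclear and 24 cytoplasmic reads, was also higher in the nuclear library (2.59-fold, 1.59 to 4.35), while the 22-base form of group 4 was lower. These reads are part of the 177 and 403 above, so the 2.23-fold difference at 20 bases rests in part on this sequence.
Group 4 at 20 bases: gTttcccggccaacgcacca

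Most reads of the shorter forms that hold position 58 lacked A there too. At 20 bases the shares were 89.8% of 177 nuclear reads (84.4 to 93.9) and 79.4% of 403 cytoplasmic reads (75.1 to 83.2), with intervals apart. The 20-base sequence of group 4 above, which has T there, gave 61 of these nuclear and 24 of these cytoplasmic reads. The gap at this length therefore rests in part on that sequence. At 21 bases, 75.0% of 160 nuclear and 77.2% of 500 cytoplasmic reads lacked A there. Over 19 to 21 bases the shares were 77.2% in the nuclear (73.2 to 80.8) and 73.3% in the cytoplasmic library (71.1 to 75.4). Over 23 to 39 bases they were 32.5% of 77 nuclear reads (22.2 to 44.1) and 66.7% of 42 cytoplasmic reads (50.5 to 80.4), and the nuclear value rests on the 24-base sequence of group 3.

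Groups differed in which form prevailed. The commonest length was 22 bases in 12 groups and 18 bases in 11, and reads of 18 bases over reads of 22 bases ran from 0.00914 in group 5 to 7.08 in group 9. Group 9 had 286 nuclear and 2070 cytoplasmic reads of 18 bases, against 32 and 301 of 22 bases. The valine group 2 had 280 and 3627 reads of 18 bases, more than its 107 and 3148 of 22 bases. The glycine group 3 had 29 and 98, few beside its 405 and 2643 reads of 22 bases. All 16 groups with at least 50 reads at 18 bases were lower in the nuclear library at that length too. Of single sequences of any length with as many reads, 27.0% were called lower. Most of the 16 passed this minimum only through the cytoplasmic library, among them group 12 with 4 nuclear and 130 cytoplasmic reads. The count is therefore a description. The median log2 ratio of the 16 groups was -3.60 at 18 bases and -4.36 at 22 bases, the length at which the T-loop groups were chosen.

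Groups with many reads of 18 bases tended to have more A at position 58 in their 22-base reads. Spearman's rho between the cytoplasmic share without A and the ratio of 18-base to 22-base reads was -0.33 over the 23 groups and -0.59 over 21, without groups 18 and 22. Those last 2 had almost no read without A and few reads of 18 bases, 5 nuclear and 3 cytoplasmic in group 18 and 2 and 1 in group 22. The points share the same 2 libraries and several near-equal ends, so this is a description without a test.

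**Figure D5:**
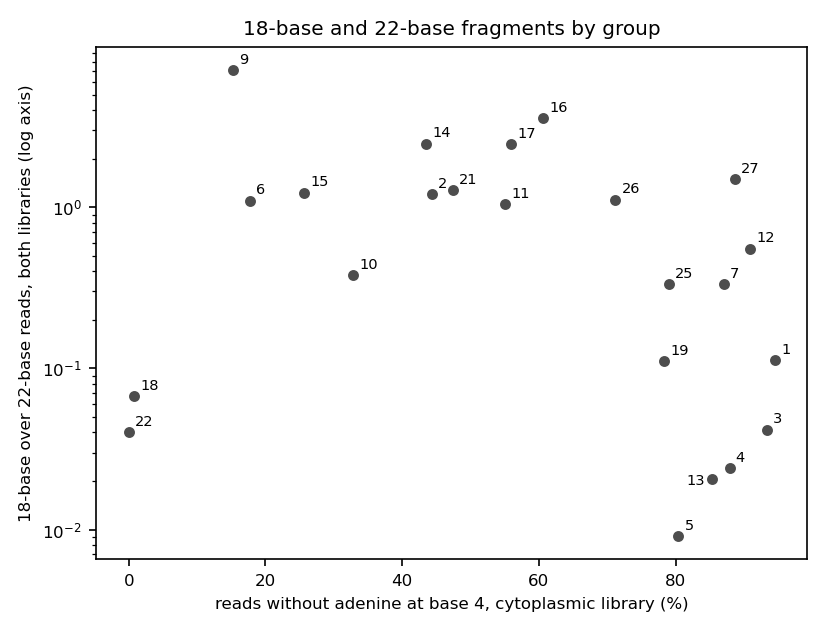
Reads of 18 bases over reads of 22 bases (both libraries summed, log axis) against the share of 22-base cytoplasmic reads without adenine at base 4 (percent), with 1 point per T-loop group, labelled with its number. Group 9 lies highest at 7.08 and group 5 lowest at 0.00914, and groups 18 and 22 lie at the lower left.

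The 3′ end was mostly complete. Among reads of these groups that begin with TC and a purine, 88.1% of 1264 nuclear and 94.2% of 15813 cytoplasmic reads ended right after CCA. Reads that stopped in C made up 4.59% of nuclear (3.50 to 5.89) and 1.30% of cytoplasmic reads (1.13 to 1.49), and those that stopped in CC 3.01% (2.14 to 4.10) and 2.46% (2.22 to 2.71). Reads without any base of the CCA were 0.870% of nuclear (0.435 to 1.55) and 0.898% of cytoplasmic reads (0.757 to 1.06). All of these end classes, CCA included, were lower in the nuclear library, by 3.48-fold (2.59 to 4.74) for ends in C and 12.6-fold (6.86 to 25.9) for ends without CCA.

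Of the 23 leading sequences, which all have a purine at base 3 by the choice of a T-loop start, 20 had G and 3 had A there. The base before the CCA, position 73, was not set by that choice and was A in 17 and G in 6. The values that follow were set by it in part. It fixes C at bases 2 and 7 and a purine at base 3, and members end in CCA. GC content over all T-loop reads was 64.7% in the nuclear and 62.4% in the cytoplasmic library, against 43.7% and 40.9% in 22-base sequences that were not members. Bases 2 to 8, the seed of a miRNA, took 13 forms in the 23 leading sequences, and 14 groups shared their seed with another. Groups 1, 3, 4, 5 and 13 shared one, with 9703 reads over both libraries, and groups 6, 10, 11, 15 and 21 another, with 1196. Because base 4 lies in this stretch, the T and A forms of an end have different seeds as sequenced. No binding or activity was measured here.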

How the data were processed

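The deposited table gives, for each distinct sequence of 18 to 39 bases, a value per library in RPM, scaled by the authors to the listed reads. CASAVA and the build mm10 are named in the submitters' processing notes. No source used here gives the trimming, alignment or filters. Whether sequences without a genome match were removed is unknown. The columns were taken as nuclear and cytoplasmic on their last letter, N or C. In both, 100% of values above 0 were whole reads within 0.1 read (0.500 RPM per nuclear and 0.490 RPM per cytoplasmic read). With 1 library per group no residual degrees of freedom remain, so edgeR's quasi-likelihood test on these reads could not be fitted and gives no number of calls.

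Python 3.11.15 with scipy 1.17.1 was used, and edgeR 4.0.16 for TMM factors. Sequences were matched to GENCODE vM21 transcripts (GRCm38) on the sense strand without mismatch. Ends of tRNA loci came from RefSeq (GRCm38.p6) start windows and GENCODE exons that cover them, with CCA added. Both strands were tried, and only ends with a T-loop start were kept. Groups needed 50 reads to be called, with a pseudocount of 0.5 reads, a 2-fold difference and an exact 95% interval that excluded 1. The calls were tested on simulated data with counting error alone, which says nothing about spread between replicates or PCR copies.

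Members, lists and rules were chosen with earlier results of these data known. Groups named are the 10 with most reads, the 5 highest and 5 lowest ratios, and those with a tRNA locus and at least 10 reads; groups 12, 14, 15 and 22 were named after their values were seen.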

Additional observations from a re-analysis of the deposited data

How the results depend on the processing

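No paired analysis was possible because each group has 1 library. All 22 named groups kept their direction, and the 19 of them with at least 50 reads their call, under scaling to the miRNA total, TMM factors, the median of ratios and a pseudocount of 1 read. Scaling to the miRNA total shifts every log2 ratio by 0.89, and the member ratio, nuclear over cytoplasmic, was then 0.331, against 0.178 by RPM and 0.189 by the median of ratios. The member ratio was 0.0940 with only TC and a purine at the start, 0.0868 with C at base 7 as well, 0.142 without any GENCODE match, 0.245 with miRNA and mitochondrial tRNA matches kept and 0.226 without group 1. The 23 of 27 groups lower became 17 of 18 with a minimum of 100 reads, 35 of 39 with a minimum of 20 and 62 of 1334 with none. The 4 groups higher became 1 with a minimum of 100 reads, 19 with none, 1 with only TC and a purine at the start, 1 without any GENCODE match and 0 with C at base 7 as well, by exact intervals.

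The nuclear share without A at base 4 was 61.7% over all members. It was 73.7% with TC and a purine at the start, 71.7% with C at base 7 as well, 68.8% without any GENCODE match, 38.2% with miRNA and mitochondrial tRNA matches kept, 66.7% as the median over groups, and 75.0% and 68.4% in 21-base and 23-base reads of the same ends. The cytoplasmic share was 70.9%. It was 72.2% and 72.3% under the first pair of these settings, 56.1% with the matches kept, 63.4% without group 1, 56% as the median over groups, 59.3% over distinct sequences, and 77.2% and 53.3% in 21-base and 23-base reads. The requirement of C at base 7 was chosen after seeing the data. Nuclear depth limits many group values: 11 of the 23 T-loop groups had under 10 nuclear reads.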

Other observations

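Most members were rare. Of the 1334 groups, 1264 had under 10 reads, with 1119 nuclear and 990 cytoplasmic reads in all, and 862 had a single read. Members without a T-loop start in groups under 50 reads had 1054 nuclear and 561 cytoplasmic reads, a ratio of 1.92 (95% interval 1.73 to 2.13). Among the members without a T-loop start, 96 sequences lay 1 substitution from a CCA-ending sequence of a miRNA gene, with 119 nuclear and 173 cytoplasmic reads. The 13 CCA-ending sequences that did match a miRNA or mitochondrial tRNA gene were not members and had 2212 nuclear and 4674 cytoplasmic reads.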
